A study of Mus musculus with 18 samples.

Results

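The genes described here are 10 markers of liver macrophages, taken by name from the gene column of an RNA-seq count table that held 15572 genes. Of these 10, the 5 resident Kupffer cell markers were Clec4f, Vsig4, Cd5l, Marco and Timd4. The 5 general macrophage markers were Adgre1, Csf1r, Cd68, Lyz2 and Cd163. All 10 were listed in the table and all 10 passed the filter on low counts.

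The study asked what the H3K9 demethylase JMJD1C does in liver on feeding, using mice that lack it in this organ (JMJD1C-LKO, made by crossing JMJD1C-floxed mice with mice carrying Cre under the albumin promoter) and wild-type (WT) littermates on a C57BL/6J background. Mice were kept on chow for 6 to 8 weeks, fasted overnight and, in the refed groups, given a high-carbohydrate diet for 6 h. RNA-seq covered 2 libraries of refed WT liver and 2 of refed JMJD1C-LKO liver, each made from pooled RNA, so the p-values measure the spread between pools and not between single mice. ATAC-seq covered fasted WT, refed WT and refed JMJD1C-LKO livers, and H3K9me2 ChIP-seq covered fasted and refed WT livers, with 2 libraries in each group. The albumin promoter is active in hepatocytes, and the macrophages of the liver were not the cells the deletion was aimed at.

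Kupffer cells are the macrophages that live inside the liver sinusoids, where they take up particles, bacteria and aged red cells from the blood. They keep their own numbers in the healthy organ and depend on signals from neighbouring hepatocytes, stellate cells and endothelial cells, while monocytes from the blood can replace them after loss. Clec4f, a galactose-binding lectin, and Timd4, a receptor for phosphatidylserine on dying cells, mark the resident cells most closely. Adgre1 (F4/80), Csf1r (the receptor for CSF1 and IL34), Cd68 (a lysosomal glycoprotein), Lyz2 (lysozyme) and Cd163 (the receptor for haemoglobin bound to haptoglobin) are found on macrophages of many tissues.

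Total estimated counts ran from 51265128 to 54400509 per RNA-seq library. The deleted gene gave a weak check of the labels. Jmjd1c had 1140 and 1188 estimated counts in the WT libraries and 990 and 1129 in those labelled JMJD1C-LKO (log2 fold change -0.14, SE 0.08, edgeR adjusted p = 0.233, range over the alternative settings 0.233 to 0.589). The 2 counted transcripts of Jmjd1c, tested singly over 22296 transcripts, went opposite ways. NM_207221, the one with more counts in every library, had a log2 fold change of 0.095 (SE 0.13, edgeR adjusted p = 0.713). NM_001242396 had one of -0.805 (SE 0.33, edgeR adjusted p = 0.208). Which stretch of the transcript the deletion removes was not given in the sources used here, so every direction below rests on the labels of the libraries.

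The promoters of the resident markers are shown because all 5 genes were higher in both JMJD1C-LKO libraries. RefSeq promoter entries (GRCm38.p6) matched 8 of the 10 markers, and those of Adgre1 and Csf1r were not used here. The 250 bases before the start of each resident marker are printed 5′ to 3′ on the strand of the gene, with capitals marking GAGGAA or its reverse complement, the core of the PU box read by the myeloid factor PU.1.
Marco, chr1:120505025-120505274, minus strand: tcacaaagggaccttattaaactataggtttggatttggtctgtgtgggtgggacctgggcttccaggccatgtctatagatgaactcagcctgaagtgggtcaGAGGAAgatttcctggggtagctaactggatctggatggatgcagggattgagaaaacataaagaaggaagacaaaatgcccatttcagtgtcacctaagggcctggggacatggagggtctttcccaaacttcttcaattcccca
Cd5l, chr3:87357631-87357880, plus strand: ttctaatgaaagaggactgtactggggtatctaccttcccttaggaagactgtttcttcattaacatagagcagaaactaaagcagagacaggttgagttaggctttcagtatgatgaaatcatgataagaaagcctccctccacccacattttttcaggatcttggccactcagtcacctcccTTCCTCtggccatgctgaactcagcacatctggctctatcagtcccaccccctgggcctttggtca
Vsig4, chrX:96293439-96293688, minus strand: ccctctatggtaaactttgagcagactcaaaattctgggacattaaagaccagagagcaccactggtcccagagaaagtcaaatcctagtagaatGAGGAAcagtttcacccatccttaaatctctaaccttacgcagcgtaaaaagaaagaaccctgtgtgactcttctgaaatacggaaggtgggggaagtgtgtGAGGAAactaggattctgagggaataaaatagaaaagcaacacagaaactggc
Clec4f, chr6:83656117-83656366, minus strand: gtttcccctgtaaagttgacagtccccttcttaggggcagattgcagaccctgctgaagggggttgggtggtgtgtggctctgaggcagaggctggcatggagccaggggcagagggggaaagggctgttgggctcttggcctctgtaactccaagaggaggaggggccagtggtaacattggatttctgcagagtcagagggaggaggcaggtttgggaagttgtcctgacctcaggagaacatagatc
Timd4, chr11:46810549-46810798, plus strand: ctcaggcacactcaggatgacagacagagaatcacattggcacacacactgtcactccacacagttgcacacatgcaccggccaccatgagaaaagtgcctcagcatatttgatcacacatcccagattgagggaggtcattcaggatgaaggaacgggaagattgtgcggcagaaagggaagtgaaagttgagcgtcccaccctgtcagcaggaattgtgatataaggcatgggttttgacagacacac

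The letters GAGGAA, searched on both strands from 250 bases before to 50 bases after the start, were found in the windows of 4 of the 8 markers, and in 28.3% of the 32851 promoters of the same length. The match lay 146 bases before the start of Marco and 66 bases before that of Cd5l. Vsig4 held it 155 and 53 bases before the start, and Cd68 held it 225 bases before and 29 bases after. The windows of Clec4f, Timd4, Lyz2 and Cd163 did not hold these letters. CACGTG, the E-box read by USF-1, a factor that the study links to JMJD1C, was in 0 of the 8 windows and in 7.15% of all promoters. These matches are descriptions of letters and show no binding.

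In refed liver, every one of the 10 macrophage markers was higher in the JMJD1C-LKO libraries than in the WT libraries, by 1.48-fold (Cd163) to 4.76-fold (Adgre1). All 10 passed the edgeR quasi-likelihood test after Benjamini-Hochberg adjustment over the 14151 genes tested, 10 higher and 0 lower. Of all genes tested, 14.6% were called higher and 13.4% lower. DESeq2 also called 10 higher and 0 lower. The 10 markers were chosen with earlier results of these data known. Both JMJD1C-LKO libraries lay above both WT libraries for 10 of 10 markers, as they did for 33.7% of all genes tested. The median log2 fold change over all genes was 0.01. In bulk liver, more macrophages and more RNA per macrophage cannot be told apart.

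Clec4f was the most abundant of the markers in WT liver. In counts scaled to a common library total (CPM), it stood at 83.8 and 84.4 in the WT libraries and at 139.7 and 190.6 in the JMJD1C-LKO libraries. The WT pair differed by less than 1 CPM, and the groups did not overlap. The difference was 1.96-fold (log2 fold change 0.97, SE 0.13, n = 2 libraries per group, edgeR adjusted p = 0.000849).

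Cd5l encodes a secreted scavenger-receptor protein (AIM) that circulates with IgM. Its CPM was 56.5 and 60.4 in WT and 129.6 and 191.7 in JMJD1C-LKO, with no overlap between groups and the higher value in JMJD1C-LKO replicate 2. Cd5l was 2.75-fold higher (log2 fold change 1.46, SE 0.15, edgeR adjusted p = 0.000282). Marco, a scavenger receptor for bacteria and particles, stood at 26.3 and 23.3 CPM in WT and at 56.3 and 79.8 CPM in JMJD1C-LKO. The groups again did not overlap, and the fold was the same as that of Cd5l (2.75-fold, log2 fold change 1.46, SE 0.15, edgeR adjusted p = 0.000229).

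Vsig4 encodes the complement receptor CRIg, which captures opsonised bacteria from the blood. Its level was 17.7 and 20.4 CPM in WT and 29.2 and 43.7 CPM in JMJD1C-LKO. The lower JMJD1C-LKO library was above both WT libraries, and the gene was 1.92-fold higher (log2 fold change 0.94, SE 0.16, edgeR adjusted p = 0.00329). Timd4 was the least abundant of the resident markers, at 6.40 and 5.39 CPM in WT and 12.3 and 18.7 CPM in JMJD1C-LKO. The groups were apart in both libraries, with a 2.63-fold difference (log2 fold change 1.40, SE 0.19, edgeR adjusted p = 0.00104).

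Adgre1, which encodes the adhesion receptor F4/80, had the largest difference of the 10 and the lowest WT level. It rested on 163 and 212 estimated counts in WT and on 621 and 1198 in JMJD1C-LKO, which is 3.14 and 4.06 CPM against 12.6 and 21.7 CPM. The lower JMJD1C-LKO library was well above both WT libraries. The difference was 4.76-fold (log2 fold change 2.25, SE 0.24, edgeR adjusted p = 0.000313). Adgre1 spans 124949 bp of the plus strand on mouse chromosome 17 (chr17:57358581-57483529, GRCm38.p6).

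Csf1r encodes the receptor tyrosine kinase on which macrophage survival depends. It stood at 40.1 and 41.2 CPM in WT and at 85.8 and 128.3 CPM in JMJD1C-LKO. The WT pair was tight, the JMJD1C-LKO pair was not, and the groups did not overlap. Csf1r was 2.63-fold higher (log2 fold change 1.40, SE 0.16, edgeR adjusted p = 0.00035), which placed it with Timd4, Marco and Cd5l.

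Lyz2 and Cd68 moved less. Lyz2, the lysozyme of macrophages and granulocytes, stood at 20.7 and 23.4 CPM in WT and 36.6 and 48.5 CPM in JMJD1C-LKO (1.93-fold, log2 fold change 0.95, SE 0.13, edgeR adjusted p = 0.00101). Cd68 stood at 10.7 and 11.6 CPM in WT and 16.8 and 20.6 CPM in JMJD1C-LKO (1.68-fold, log2 fold change 0.75, SE 0.12, edgeR adjusted p = 0.00206). Neither gene overlapped between groups. Lyz2 has a close copy, Lyz1, whose reads can be assigned to it in part. Lyz1 was at 1.14 and 1.32 CPM in WT and 1.72 and 2.98 CPM in JMJD1C-LKO, far below Lyz2 in every library, and summing the pair left the number of markers called at 10.

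Cd163 had the smallest difference and the least secure one. Its level was 7.99 and 7.69 CPM in WT and 9.17 and 14.04 CPM in JMJD1C-LKO. JMJD1C-LKO replicate 1 was close to the WT values and replicate 2 was not. The test gave a 1.48-fold difference (log2 fold change 0.57, SE 0.18, edgeR adjusted p = 0.0432). The call was lost without WT replicate 1 (0.59, adjusted p = 0.172), without WT replicate 2 (0.54, adjusted p = 0.223) and without JMJD1C-LKO replicate 2 (0.23, adjusted p = 0.251).

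**Figure D1:**
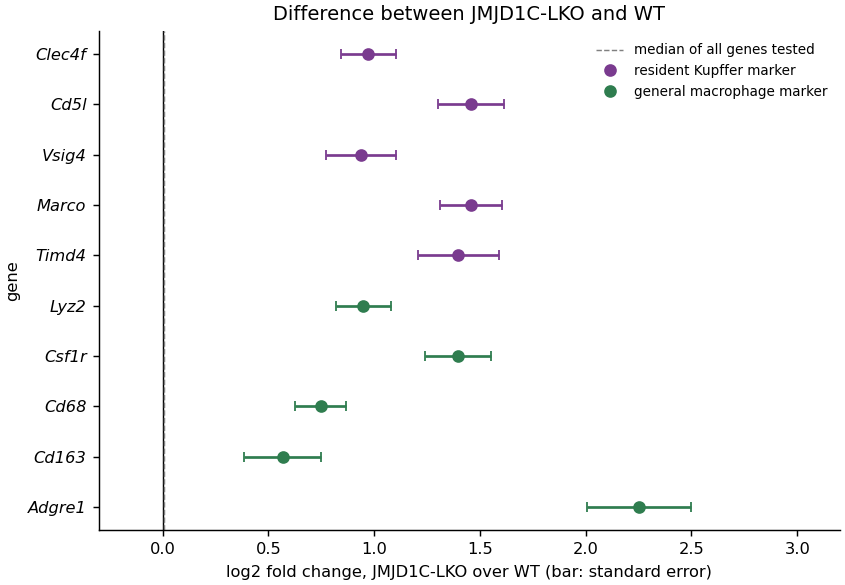
Log2 fold change of each macrophage marker between JMJD1C-LKO and WT refed liver (x axis), one gene per line; points are edgeR estimates from 2 libraries per group, bars are standard errors, and the dashed line is the median of all genes tested (0.01). All 10 points lie above 0, from 0.57 for Cd163 to 2.25 for Adgre1.

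The spread within the JMJD1C-LKO group was wide for these genes, and for some markers of other liver cells given below. For all 10 markers replicate 2 was above replicate 1, by a ratio of 1.22 (Cd68) to 1.73 (Adgre1) and a median of 1.49. Over the 10913 genes with a mean of at least 2 CPM, the same ratio had a median of 0.99, a 5th percentile of 0.79 and a 95th percentile of 1.38. The 2 WT libraries were closer, with ratios of 0.84 to 1.29 and a median of 1.05 over the markers. How many mice went into each pool was not given in the sources used here. Without JMJD1C-LKO replicate 2, 9 of the 10 markers were still called, and the log2 fold change was 1.08 in place of 1.40 for Csf1r and 1.80 in place of 2.25 for Adgre1.

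Per transcript length, 4 of the 5 resident markers were among the 5 most abundant of the 10 markers in WT liver, and Timd4 was not. On the TPM scale (counts divided by transcript length, then scaled to the same total in every library), given as mean ± SD of 2 libraries, Clec4f led at 60.3 ± 1.24, ahead of Cd5l at 49.4 ± 3.10 and Lyz2 at 35.96 ± 3.62. Vsig4 (22.9 ± 2.60) and Marco (22.1 ± 1.55) overlapped in their libraries and could not be ordered. Csf1r (18.1 ± 0.62) and Cd68 (16.6 ± 0.35) followed, and Timd4 (4.66 ± 0.50), Cd163 (3.04 ± 0.02) and Adgre1 (1.93 ± 0.38) were the lowest. Adgre1 thus lay at the 29.9th percentile of the tested genes with a TPM in WT and Clec4f at the 87.8th.

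In JMJD1C-LKO liver the order by TPM was headed by Cd5l at 133.9 ± 40.9 and Clec4f at 116.7 ± 29.3, whose libraries overlapped. Lyz2 (68.3 ± 15.8), Marco (59.98 ± 16.6), Csf1r (46.9 ± 14.7) and Vsig4 (43.2 ± 13.6) each overlapped the next in order. Cd68 (27.8 ± 6.11) lay below all 4 of these in both libraries. Timd4 (12.1 ± 3.96) and Adgre1 (9.05 ± 3.69) overlapped, and Cd163 (4.43 ± 1.46) was now the lowest of the 10. Read within a single library, the 10 markers stood in this same order in both JMJD1C-LKO libraries.

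**Figure D2:**
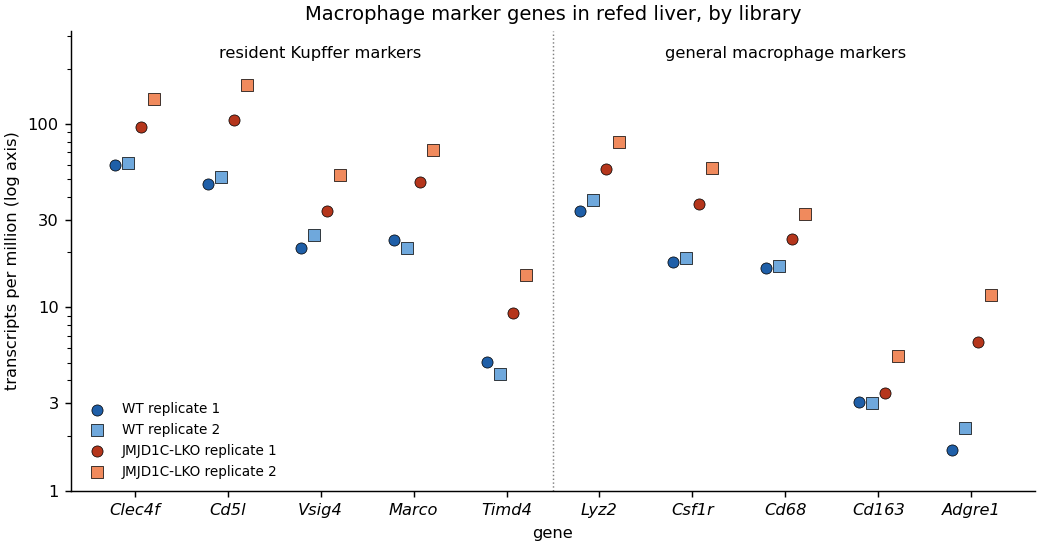
Level of each macrophage marker in every RNA-seq library (y axis, TPM on a log axis; x axis, genes), with WT libraries in blue and JMJD1C-LKO libraries in red and orange. For each of the 10 genes both JMJD1C-LKO points lie above both WT points, and JMJD1C-LKO replicate 2 is the highest point.

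The resident and general markers were compared as classes. The median log2 fold change was 1.40 for the 5 resident markers and 0.95 for the 5 general ones. The size of this gap depended on where Cd163 was placed. Kupffer cells carry CD163 as well. With Cd163 counted among the resident markers the medians were nearly equal, at 1.19 and 1.17. Within each class the spread was wider than the gap between classes, from 0.94 to 1.46 among resident markers and from 0.57 to 2.25 among general ones.

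Summed over the resident markers, the TPM was 156.0 and 162.9 in WT and 292.1 and 439.6 in JMJD1C-LKO. The general markers summed to 72.1 and 79.1 TPM in WT and to 127.0 and 185.9 TPM in JMJD1C-LKO. Both sums were higher in both JMJD1C-LKO libraries. The ratio of the resident sum to the general sum was 2.16 and 2.06 in WT and 2.30 and 2.36 in JMJD1C-LKO, so the groups did not overlap but lay close. With 2 libraries against 2, an exact two-sided permutation test of such a ratio cannot give a p below 0.333, and none is given.

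Relative to Csf1r in the same library, the markers did not keep 1 common proportion. Clec4f was 3.37 and 3.31 times Csf1r (TPM) in WT and 2.63 and 2.40 times in JMJD1C-LKO, and Vsig4, Cd68, Lyz2 and Cd163 were also lower relative to Csf1r in both JMJD1C-LKO libraries. Cd68 went from 0.93 and 0.91 times Csf1r to 0.64 and 0.56 times. Adgre1 went the other way, from 0.10 and 0.12 times Csf1r in WT to 0.18 and 0.20 times in JMJD1C-LKO. Cd5l was slightly higher (2.68 and 2.79 against 2.87 and 2.84), and Marco and Timd4 overlapped between groups. Of the markers named above as closest to resident cells, Clec4f was thus lower relative to Csf1r and Timd4 was not separated. The direction of such a ratio depends on the gene used as divisor. The log2 fold change of Clec4f (0.97) was below that of Csf1r (1.40), above that of Cd68 (0.75) and near that of Lyz2 (0.95).

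**Figure D3:**
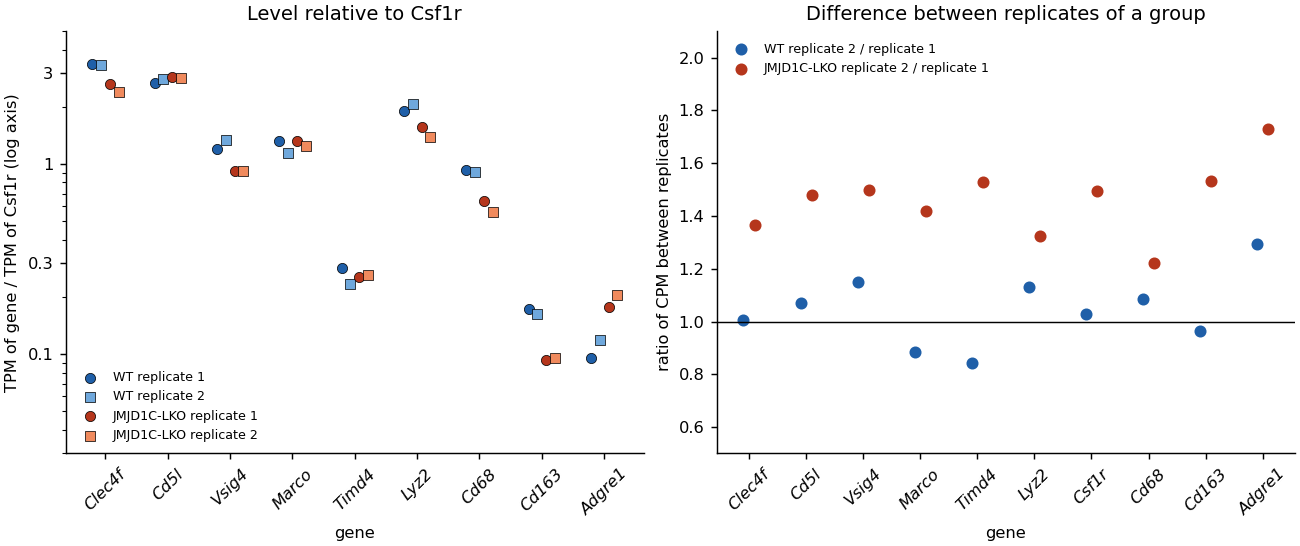
Left, TPM of each marker divided by the TPM of Csf1r in the same library (log axis), with WT in blue and JMJD1C-LKO in red and orange; Clec4f, Vsig4, Lyz2, Cd68 and Cd163 are lower and Cd5l and Adgre1 higher in both JMJD1C-LKO libraries. Right, ratio of CPM between replicate 2 and replicate 1 of each group (1 means equal); the JMJD1C-LKO ratios run from 1.22 to 1.73 and the WT ratios from 0.84 to 1.29.

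Most of the markers were counted on 1 transcript, and Adgre1, Cd68 and Cd163 on several. For Adgre1, the transcript NM_010130 took 32.2% and 32.5% of the counts of the gene in WT and 52.3% and 64.5% in JMJD1C-LKO. NM_001355723 took 66.9% and 67.5% in WT and 45.6% and 30.8% in JMJD1C-LKO. The shares did not overlap between groups for either transcript. These shares come from the assignment of reads among transcripts that share most of their exons. Tested transcript by transcript over 22296 transcripts, NM_010130 was higher in JMJD1C-LKO (log2 fold change 3.14, SE 0.43, edgeR adjusted p = 0.0362) and NM_001355723 missed the threshold (log2 fold change 1.36, SE 0.24, edgeR adjusted p = 0.0505).

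Cd163 was split between NM_001170395 (log2 fold change 1.19, SE 0.42, edgeR adjusted p = 0.169) and NM_053094 (log2 fold change 0.08, SE 0.33, edgeR adjusted p = 0.909), and neither was called. In that fit 2.12% of all transcripts were called higher. Of the 14 transcripts of the markers 6 were, 1 each for Clec4f, Cd5l, Marco, Lyz2, Csf1r and Adgre1. The spread estimated between libraries was larger for transcripts (common dispersion 0.0492) than for genes (0.0083).

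Other macrophage genes moved with the 10 markers. Their list was chosen with earlier results of these data known, and 14.6% of all genes tested were called higher. Of 20 further genes of macrophages and myeloid cells, 20 were higher in JMJD1C-LKO and 0 lower in the edgeR test (0 lower by DESeq2). The median log2 fold change was 1.18. Fcgr3, an Fc receptor for IgG, was at 8.04 and 8.38 CPM against 19.6 and 26.2 CPM (log2 fold change 1.48, SE 0.14, edgeR adjusted p = 0.000165). Mpeg1, the pore-forming perforin-2, had a log2 fold change of 1.39, and Laptm5, a lysosomal membrane protein of blood cells, one of 1.78.

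Of 10 further genes associated with Kupffer cells, 6 were higher, 1 lower and 3 not called, with a median log2 fold change of 0.54. Clec1b (CLEC-2, log2 fold change 1.35), Il18bp (a decoy that binds IL18, 1.30) and Spic (a transcription factor of iron-handling macrophages, 1.21) were among those that were higher. C6, a complement component that hepatocytes also make, was higher too (log2 fold change 1.59), but at 129.3 CPM in JMJD1C-LKO replicate 1 and 86.5 CPM in replicate 2 it had the opposite order between replicates to all 10 markers. The 1 gene called lower, named after its values were seen, was Slc40a1, the iron exporter ferroportin (log2 fold change -0.34, SE 0.09, edgeR adjusted p = 0.0175), and its call was lost without WT replicate 1 or WT replicate 2.

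Of 12 monocyte genes, 9 were tested, since F13a1 was not listed and Chil3 and Vcan did not pass the filter. Of the 9, 7 were called higher and 0 lower in the edgeR test, with 0 lower at an unadjusted p under 0.05 and 0 by DESeq2. The list summed to 7.31 and 8.82 CPM in WT and 16.9 and 25.1 CPM in JMJD1C-LKO, against 190.7 and 193.9 CPM in WT and 367.0 and 524.6 CPM in JMJD1C-LKO for the 5 resident markers. Ly6c2, which marks inflammatory monocytes, was at 0.23 and 0.42 CPM in WT and 1.01 and 1.49 CPM in JMJD1C-LKO (log2 fold change 1.93). Plac8 (1.29), S100a4 (2.54) and Nr4a1 (1.47) were likewise higher on the log2 scale. S100a4 rested on 7 and 8 counts in WT, at 0.135 and 0.153 CPM against 0.546 and 1.143 CPM in JMJD1C-LKO. The part of monocytes in the marker levels was not tested.

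Genes of lipid-associated macrophages did not move as a group. Of 7, 1 was higher (Lpl, lipoprotein lipase, log2 fold change 0.30) and 1 lower (Cd63, a tetraspanin of lysosomes, -0.95), and the median was -0.06. Of the others, Trem2 and Gpnmb, named after their values were seen, were under 1 CPM in every library and were not called. Spp1 is also on the cholangiocyte list. Whether macrophages of this kind differed was not tested. Of 15 cytokines and chemokines, 9 were tested and 4 were higher and 0 lower in the edgeR test, with 0 lower at an unadjusted p under 0.05 and 0 by DESeq2. The 4 were Ccl5 (log2 fold change 1.72), Ccl6 (1.61), Il1b (0.82) and Ccl9 (0.45). Il6 and Nos2 were not listed, and Tnf, Il10, Ccl2 and Ccl3 did not pass the filter.

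The ligands of the Kupffer cell niche were mixed. Csf1, a ligand of CSF1R, was lower in JMJD1C-LKO, at 10.3 and 10.4 CPM against 15.2 and 16.0 CPM in WT (log2 fold change -0.60, SE 0.10, edgeR adjusted p = 0.00285), a call lost without WT replicate 2. Its receptor gene Csf1r was higher, as given above. Il34, the other ligand of CSF1R, was at 1.79 and 2.51 CPM in WT and 2.69 and 3.01 CPM in JMJD1C-LKO and was not called (log2 fold change 0.41, SE 0.23, edgeR adjusted p = 0.22). Tgfb1 (log2 fold change 0.76), Gdf2 (BMP9, 0.45) and Bmp10 (1.69) were higher, Bmp10 at under 1 CPM in every library. Of the 6 ligands tested, 3 were higher and 1 lower.

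Markers of other liver cells were read in the same way, since they share the tissue piece. Hepatocyte markers had a median log2 fold change of 0.08, with 2 of 7 higher (Cps1 and Ass1, both of the urea cycle) and 0 lower. Markers of sinusoidal endothelial cells had a median of 0.57, with 5 of 8 higher and 0 lower, among them Stab2 (0.82), Oit3 (0.97), Pecam1 (0.93) and Clec4g (0.47). For stellate cells 0 of 8 were called in either direction by edgeR or by DESeq2 (3 higher and 1 lower at an unadjusted p under 0.05), and the 2 most abundant, Ecm1 and Dcn, had log2 fold changes of 0.03 and 0.25. At an unadjusted p under 0.05, and by DESeq2, 0 hepatocyte and 0 endothelial markers were lower. The endothelial markers thus also differed in the direction of the macrophage markers, by less at the median, and their part in the result was not tested. Their ratio of JMJD1C-LKO replicate 2 to replicate 1 had a median of 1.29, against 1.16 for stellate and 0.93 for hepatocyte markers.

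Leukocytes other than macrophages were at low levels. The 8 T and B cell markers summed to 5.31 and 4.93 CPM in WT and 8.82 and 11.2 CPM in JMJD1C-LKO. Of these, 2 were called higher (Cd3e and Cd4), and the median log2 fold change was 1.04, beside 0.95 for the general macrophage markers. At an unadjusted p under 0.05, edgeR put 7 of the 8 higher and 0 lower. Of 7 dendritic cell markers 3 were higher (Clec9a, Flt3 and Ccr7), with sums of 6.02 and 6.77 CPM in WT and 10.4 and 12.955 CPM in JMJD1C-LKO. Their median log2 fold change was 0.92, with 4 higher and 0 lower at an unadjusted p under 0.05. The 3 neutrophil markers tested, led by S100a9 and S100a8, summed to 0.75 and 0.61 CPM in WT and 1.52 and 1.54 CPM in JMJD1C-LKO. Their median log2 fold change was 1.13, and 0 were called by edgeR or DESeq2 (2 higher at an unadjusted p under 0.05).

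Residual blood and bile duct tissue were read from the last lists. Red cell markers had a median log2 fold change of 0.21 and 1 of 5 called higher (Alas2, the first enzyme of haem synthesis in red cells). Their sum was 1058.7 and 587.2 CPM in WT and 926.9 and 916.6 CPM in JMJD1C-LKO, so the groups overlapped. Of 5 cholangiocyte markers 0 were called by edgeR or DESeq2 (1 lower at an unadjusted p under 0.05), and Spp1 and Sox9, the most abundant, had log2 fold changes of -0.06 and 0.20.

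**Figure D4:**
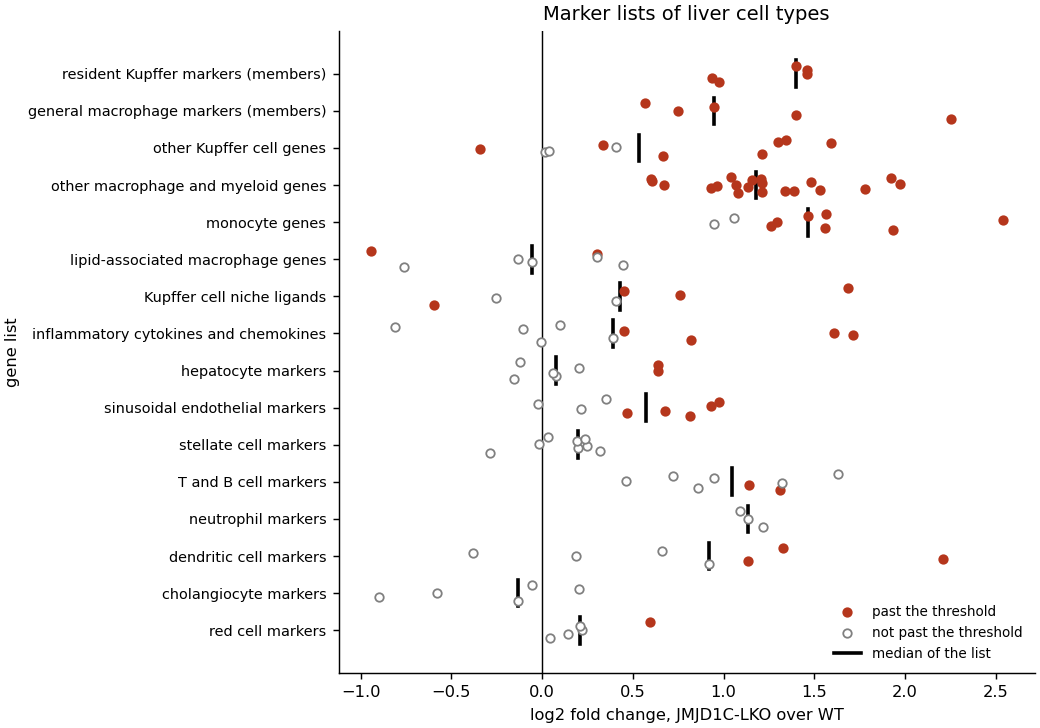
Log2 fold change between JMJD1C-LKO and WT (x axis) for each tested gene of 16 lists (y axis), with filled points past the edgeR threshold, open points not past it, and a bar at the median of each list. All points of the 2 marker classes and of the other macrophage and myeloid genes are filled and lie above 0. The medians are 1.47 for monocyte, 1.13 for neutrophil, 1.04 for T and B cell and 0.92 for dendritic cell genes. Those of the endothelial, stellate and hepatocyte lists are 0.57, 0.20 and 0.08.

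The chromatin data were read at the same 10 genes. A summit, the highest point of a peak, was counted for a gene when it lay within 1000 bp of an annotated RefSeq transcript start. The H3K9me2 libraries placed a summit at 0 of the 10 markers, where fasted WT replicates 1 and 2 placed one at 29.3% and 42.7% of 26180 annotated genes and refed WT replicates 1 and 2 at 0.233% and 35.1%. The refed replicate 1 library held 1297 summits against 7690 to 13456 in the other H3K9me2 libraries, and could show little. In the same window, H3K9me2 summits lay at 7, 6, 0 and 5 of the 7 hepatocyte markers, in the order of fasted replicates 1 and 2 and refed replicates 1 and 2. The monocyte, T and B cell, neutrophil and red cell lists described above also held 0 in every library. In the same order, endothelial markers held 0, 2, 0 and 0 of 8, stellate markers 0, 1, 0 and 0 of 8, and further Kupffer cell genes 4, 5, 0 and 5 of 10. A count of 0 was thus not particular to the macrophage markers.

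ATAC-seq also placed a summit at 0 of the 10 markers in every library. The share of all annotated genes was 12.0% and 5.49% in fasted WT, 9.94% and 6.24% in refed WT, and 4.06% and 0.886% in refed JMJD1C-LKO. The JMJD1C-LKO libraries held 1450 and 825 summits and the WT libraries 3119 to 7632, so at this depth of calling a difference at the markers between groups was not detectable. Of the 7 hepatocyte markers, 2 and 1 had an ATAC-seq summit in fasted WT, 0 and 0 in refed WT, and 1 and 0 in refed JMJD1C-LKO. A count of 0 here says only that no summit was called.

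Farther from the starts, Cd68 was the 1 marker with a summit within 5000 bp. H3K9me2 summits lay 3703 and 3236 bp downstream of its start in the fasted libraries and 3795 bp downstream in refed replicate 2, past the end of the gene, which spans 1958 bp. Within the gene bodies, 1 ATAC-seq summit lay in Vsig4 in fasted WT replicate 2, 26998 bp from the start, and 1 in Adgre1 in refed WT replicate 2, 40908 bp from the start. Neither was called in the other library of its group. The markers were thus higher in RNA with no summit called at their starts in either assay, and whether their chromatin differed between groups was not tested.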

How the data were processed

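RNA-seq, ATAC-seq and H3K9me2 ChIP-seq of mouse liver were used. The authors deposited a table of estimated counts per RefSeq transcript, not whole numbers (65.7% to 66.0% of all values fractional). Per library, they also deposited peak summits that their peak caller scored with a −log10 p- or q-value (which of them is not given in the sources used here). The submitters' processing notes name CASAVA, bcl2fastq 2.2, cutadapt 1.2.1, HISAT2, BWA, MACS2 2.1.1, Partek and DESeq2 3.5. They name the build mm10, whose coordinates are those of GRCm38, used here for annotation. A deposited list of the authors' own comparisons (fold changes and p-values) was not used.

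Transcript counts were summed per gene, rounded, and tested with edgeR 4.0.16 (R 4.3.3; TMM, filterByExpr, quasi-likelihood F test, Benjamini-Hochberg over 14151 genes, threshold 0.05). The SE is the log2 fold change over the square root of F. TPM used RefSeq spliced lengths. Summits were counted within 1000 bp of transcript starts. Scripts were tested on simulated data. Alternatives were RLE and upper quartile factors, DESeq2 1.42.0, no filter, a stricter filter (CPM of at least 1 in 2 libraries), a replicate block, each replicate left out, and, chosen after seeing the data, Lyz1 and Lyz2 summed and transcripts tested singly. Named from each other list were at most 4 genes, those past the threshold with the smallest p, or the 2 most abundant where none passed. 1 gene that this rule would name is not reported here.

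The markers and the 14 other lists were chosen with earlier results of these data known. Same-numbered libraries did not deviate together (correlation -0.005), so the numbers were not taken as pairs. Replicates differed by more than counting noise (chi-square per degree of freedom 12.7 in WT and 32.6 in JMJD1C-LKO). Depth was 51265128 to 54400509 counts per library. Counting error is not small beside the WT spread for Clec4f, Csf1r and Cd163, whose WT counts nearly match.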

Additional observations from a re-analysis of the deposited data

How the results depend on the processing

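Of 110 values of the 10 markers under other settings, 107 kept their direction and side of the threshold, 0 reversed and 3 lost the call, all 3 for Cd163 on leaving out a library (log2 fold change 0.23 to 0.59 in those, and 0.84 without JMJD1C-LKO replicate 1, which kept the call). The replicate block (the numbers are not pairs) called 10 of 10 markers, with 2211 genes higher and 1996 lower, and moved no marker's call. Upper quartile factors, which shifted the median by 0.07, called 2518 higher and 1330 lower of all genes, against 2066 and 1892 with TMM. Tested as transcripts, 6 markers were called, where 2.12% of all transcripts were called higher. Leaving out 1 library at a time gave 660 to 2590 genes higher and 408 to 2590 lower, the fewest (660 and 408) without WT replicate 2 and then (789 and 476) without WT replicate 1.

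List counts, main value first, moved as follows on leaving out a library. Higher: monocyte 7, 2 to 8, with 2 without WT replicate 1, 3 without WT replicate 2 and 3 without JMJD1C-LKO replicate 2; lipid-associated 1, 0 to 2; niche ligands 3, 0 to 2; cytokines 4, 2 to 5; hepatocyte 2, 1 to 2; endothelial 5, 3 to 7; stellate 0, 0 to 3; T and B cell 2, 0 to 4; dendritic 3, 1 to 2; red cell 1, 0 to 5. Lower: other Kupffer 1, 0 to 1; lipid-associated 1, 1 to 2; niche ligands 1, 0 to 1; stellate 0, 0 to 1; cholangiocyte 0, 0 to 1. Other settings moved some counts of genes called higher by over 1.5 times, and smaller moves are not listed. The stricter filter gave 4 monocyte, 1 stellate and 5 T and B cell genes, upper quartile factors gave 2 lipid-associated, 3 stellate and 5 T and B cell genes, the replicate block gave 1 stellate and 4 T and B cell genes, and DESeq2 gave 1 T and B cell gene. With a window of 5000 bp, 1 marker (Cd68) had an H3K9me2 summit in each of fasted replicates 1 and 2 and refed replicate 2. For these changes the cause was not tested.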
